A study of Mus musculus with 2 samples.

Results

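Klf2, Klf4, Nos3, Thbd and Piezo1 are genes through which endothelial cells sense blood flow and answer to it. All 5 symbols were found among the 32285 gene rows of both matrices, and no cell was chosen by their values. Cells that showed 300 genes or more, with no more than 10% of their UMIs (unique molecular identifiers, each marking a captured RNA molecule) from mitochondria, were grouped into cell types by other marker genes. Each gene was then read in each type and library.

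Flowing blood drags on the endothelium, and this drag is called shear stress. Piezo1 encodes a cation channel of the cell membrane that opens under mechanical force. Steady laminar flow acts through the kinases MEKK2, MEKK3, MEK5 and ERK5 on transcription factors of the MEF2 family, which switch on Klf2 and Klf4. These encode zinc finger factors that raise Nos3, the endothelial nitric oxide synthase, and Thbd, thrombomodulin, a receptor that turns thrombin from a clotting enzyme into an activator of protein C. At arterial branches and bends, where flow is disturbed and atherosclerosis begins, Klf2 and Klf4 are known to be lower. Klf2 also keeps resting lymphocytes quiescent, and Klf4 is used by myeloid and smooth muscle cells, so neither is confined to endothelium.

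Single-cell RNA was measured in 1 library of aortic cells for each of 2 groups of mice. Both groups lacked ApoE, on a C57BL/6 background, and ate a Western diet, which together produce atherosclerosis. The labels name no further deletion for the WT group. The EC-iCD45KO group also carried a tamoxifen-inducible deletion in endothelial cells of CD45, a leukocyte phosphatase encoded by Ptprc. Cells were released from the aorta with collagenases and Liberase and enriched with CD31 microbeads. The Cre driver, the animals' age and sex, their number and any pooling are not given in the sources used here, nor is whether WT animals carried Cre or received tamoxifen. With 1 library per group no test between groups was possible: intervals are 95% and cover counting error only, and any difference between the preparations is also a difference between the groups.

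The UMI totals were similar, over fewer barcodes in EC-iCD45KO: 92058043 UMIs over 39849 barcodes for WT and 88967918 UMIs over 30278 barcodes for EC-iCD45KO. The median UMIs per barcode were 1548 and 1405, and the median mitochondrial shares 1.90% and 3.03%. After the cell filter and removal of the likeliest doublets, 35553 and 26064 cells remained, of which 24873 and 22416 fell in a named type. The libraries shared 340 barcodes, 0.853% of those of WT and 1.12% of those of EC-iCD45KO. B-like cells numbered 5788 in WT and 335 in EC-iCD45KO, and macrophage-like cells 2665 and 8688.

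Endothelial cell (EC)-like cells numbered 4055 in WT and 3774 in EC-iCD45KO. Their 14 endothelial markers were all detected and summed to 5414 CPM (the UMIs of a gene per 1000000 UMIs of the type) in WT and 6717 CPM in EC-iCD45KO. The same sum over 6 other types ran from 126 to 478 CPM (WT) and from 176 to 627 CPM (EC-iCD45KO). Ptprc, the targeted gene, had 312 CPM among WT EC-like cells against 106 CPM with the deletion; the log2 ratio was -1.55 (-1.66 to -1.45). It was also lower in EC-iCD45KO in SMC-like cells (SMC, smooth muscle cell), at 159 and 87.3 CPM, in fibroblast-like cells, at 304 and 133 CPM, and in macrophage-like cells, at 456 and 271 CPM. It was higher in EC-iCD45KO in B-like cells, at 752 and 1269 CPM, in neutrophil-like cells, at 938 and 1731 CPM, and in naive T-like cells, at 1055 and 1353 CPM, but lower in T/NK-like cells as a whole, at 1092 and 833 CPM, and in dendritic cell-like cells, at 841 and 696 CPM. Markers of other types were present in the EC-like droplets. B cell markers summed to 893 CPM in WT and 69.3 CPM in EC-iCD45KO, T/NK markers to 417 and 63.6 CPM, and macrophage markers to 2820 and 3419 CPM. What part they had in the values of the 5 genes was not tested.

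The upstream sequences of the 3 genes found in the RefSeq promoter table (GRCm38.p6) are shown because they hold, or lack, the short motifs by which the flow pathway is usually read. They run 5′ to 3′ on each gene's strand and stop before the gene's most upstream annotated start. Capitals mark a match to the MEF2 consensus, bound by MEF2 factors, or to CACCC, the core recognised by KLF proteins. Nos3 and Thbd are named only.
Klf2: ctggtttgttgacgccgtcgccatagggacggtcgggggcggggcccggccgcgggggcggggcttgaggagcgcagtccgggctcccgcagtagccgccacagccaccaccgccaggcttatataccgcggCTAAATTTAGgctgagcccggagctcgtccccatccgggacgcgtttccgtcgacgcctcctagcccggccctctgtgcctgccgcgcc
Klf4: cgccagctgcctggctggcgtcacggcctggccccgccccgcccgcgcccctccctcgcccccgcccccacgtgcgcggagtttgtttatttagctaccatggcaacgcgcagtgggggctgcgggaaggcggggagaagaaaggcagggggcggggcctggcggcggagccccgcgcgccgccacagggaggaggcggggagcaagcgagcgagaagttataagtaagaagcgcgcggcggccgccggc
Piezo1: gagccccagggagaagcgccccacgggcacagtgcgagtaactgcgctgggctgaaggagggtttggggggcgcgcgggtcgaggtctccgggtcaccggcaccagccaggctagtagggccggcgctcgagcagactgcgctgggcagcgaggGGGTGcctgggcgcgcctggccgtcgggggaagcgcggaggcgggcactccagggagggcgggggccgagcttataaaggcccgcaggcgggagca

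The Klf2 window, chr8:72318812-72319032 on the plus strand, is 221 bases long. It holds 1 MEF2 consensus match, CTAAATTTAG, which begins 89 bases before the start. Of 32851 promoter windows of that length, 2.61% hold such a match on either strand. The Klf4 window, chr4:55532476-55532725 on the minus strand, is 250 bases long and holds neither a MEF2 consensus match nor CACCC. It holds 4 copies of CCGCCC, the core of the GC box, the first pair of which share a base, and the Klf2 window holds 2 and the Piezo1 window 1. At that length 2.92% of windows hold the MEF2 consensus, 52.0% hold CACCC and 32.7% hold CCGCCC. The Piezo1 window, chr8:122551330-122551579 on the minus strand, holds 1 CACCC, read as GGGTG on the shown strand and beginning 96 bases before the start. It also holds 1 match to GAGACC, a motif first described as a shear stress response element, which 13.7% of windows hold. All motifs were searched on both strands, and no match of one motif overlapped a match of another in these windows. A match is a description of letters and not evidence of binding.

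In GRCm38 coordinates Klf2 (ENSMUSG00000055148) spans chr8:72319033-72321656 with 3 exons, and Klf4 (ENSMUSG00000003032) spans chr4:55527143-55532466 with up to 5. Nos3 (ENSMUSG00000028978) spans chr5:24364810-24384474 with up to 26 exons, Thbd (ENSMUSG00000074743) spans chr2:148404466-148408188 in 1 exon, and Piezo1 (ENSMUSG00000014444) spans chr8:122481698-122551329 with up to 51. Nos3 overlaps Gm15587 and Atg9b on the other strand, which had 8 and 16 UMIs among WT EC-like cells and 10 and 14 among those of EC-iCD45KO. Piezo1 overlaps Ctu2 on the other strand, with 96 and 111 UMIs there. Whether the counting used strand is not given in the sources used here.

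Nos3 was the most endothelial of the 5 genes. EC-like cells held it at 62.5 CPM (57.3 to 68.1) for WT against 74.2 CPM (68.9 to 79.8) for EC-iCD45KO, 13.0 and 14.4 times that of all other cells kept. Lymphatic EC-like cells followed, with 42.7 and 48.6 CPM, intervals that overlapped those of EC-like cells. In the 11 types that were not endothelial, Nos3 ran from 0 to 4.84 CPM (WT) and from 2.93 to 17.8 CPM (EC-iCD45KO), where the highest value rested on 6 UMIs of erythroid-like cells. EC-like cells made up 11.4% of the WT cells and held 58.6% of the Nos3 UMIs. In EC-iCD45KO they made up 14.5% of cells and held 65.7%.

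Thbd was likewise endothelial, but with a floor in stromal cells. EC-like cells held it at 92.9 CPM for WT against 118 CPM for EC-iCD45KO, 6.85 and 6.31 times the level of all other cells. Lymphatic EC-like cells reached 105 and 129 CPM and overlapped with EC-like cells in both libraries. Fibroblast-like cells came next with 43.3 and 59.1 CPM, and SMC-like cells had 32.9 and 26.9 CPM. Plasma-like, B-like and T/NK-like cells held between 0.733 and 4.46 CPM.

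Klf2 was highest in EC-like cells, with B-like and lymphatic EC-like cells next. EC-like cells held it at 1229 CPM (1205 to 1253) for WT against 1131 CPM (1110 to 1152) for EC-iCD45KO. B-like cells followed at 992 and 736 CPM, lymphatic EC-like cells at 921 and 620 CPM and neutrophil-like cells at 606 and 602 CPM. EC-like cells stood above B-like cells with no overlap of intervals in either library, whereas B-like and lymphatic EC-like cells overlapped in both. T/NK-like cells had 463 and 282 CPM, the latter below SMC-like cells at 310 CPM with overlapping intervals. Plasma-like cells, the antibody-secreting descendants of B cells, had the lowest level, at 219 and 71.6 CPM. The level in EC-like cells was 2.44 times that of all other cells in WT and 4.37 times in EC-iCD45KO, and the other cells themselves stood at 504 and 259 CPM.

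By type, Klf4 was highest in the endothelial ones, with fibroblast-like and dendritic cell-like cells next. Lymphatic EC-like cells led at 537 CPM in WT and 645 CPM in EC-iCD45KO, above EC-like cells at 446 and 434 CPM with no overlap of intervals. Fibroblast-like cells had 383 and 354 CPM and dendritic cell-like cells 359 and 405 CPM. The dendritic level overlapped that of EC-like cells in EC-iCD45KO but not in WT. Macrophage-like cells stood lower, at 185 and 219 CPM, as did SMC-like cells, at 219 and 182 CPM, and neutrophil-like cells, at 116 and 127 CPM. T/NK-like cells had 228 and 273 CPM as a class. Within them a cluster led by Cd163l1 and Trdc, of 375 and 95 cells, had 511 and 522 CPM, by value above EC-like cells. The ratio of EC-like to other cells was 1.78 in WT and 1.70 in EC-iCD45KO.

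Piezo1 was as much a macrophage gene as an endothelial gene in these aortas. In WT macrophage-like cells had the highest level, 158 CPM (150 to 166), above EC-like cells at 126 CPM (118 to 134). In EC-iCD45KO the order was the other way round, with 124 CPM (120 to 128) in macrophage-like cells and 150 CPM (143 to 158) in EC-like cells. SMC-like cells had 45.4 and 40.8 CPM. The ratio of EC-like to all other cells was 1.55 and 1.53.

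**Figure D1:**
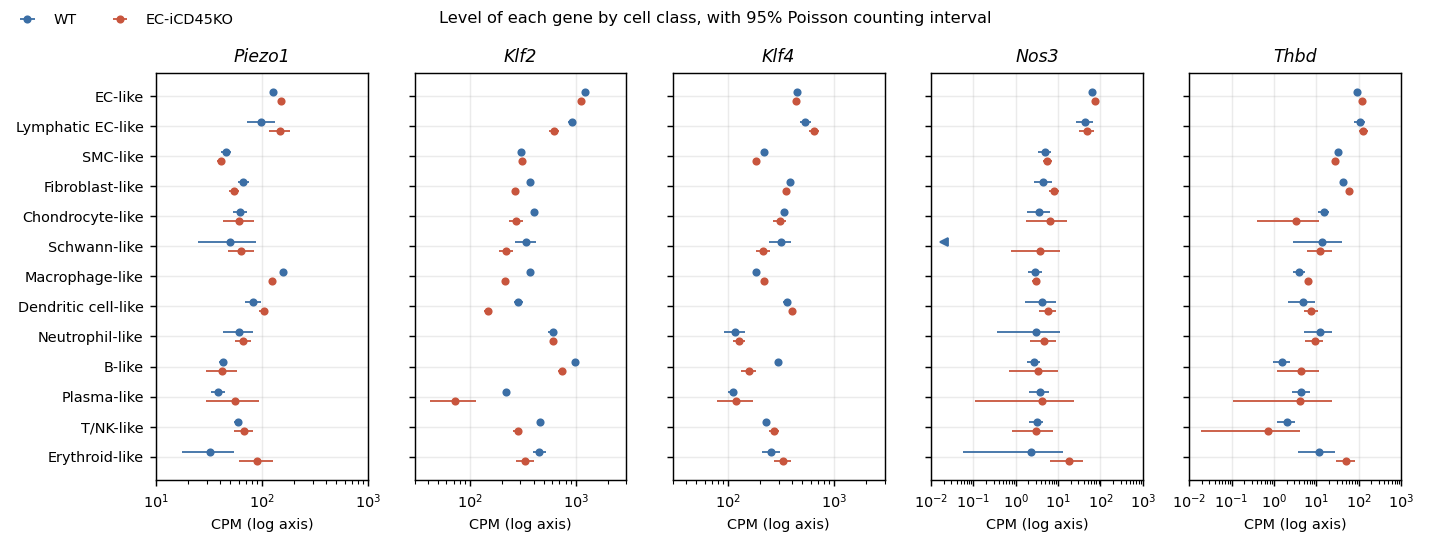
Level of each gene in CPM on a log axis in 13 cell types, WT in blue and EC-iCD45KO in red. Points are levels over all cells of a type, lines are 95% Poisson counting intervals, and an arrowhead at the left edge marks a level of 0. Nos3 and Thbd fall by an order of magnitude or more from the 2 endothelial types to lymphocytes, whereas Klf2 is also high in B-like cells and Piezo1 in macrophage-like cells.

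Shares of cells with a UMI gave the same picture. Each cell was thinned to 1000 UMIs, which left out shallower cells and kept 2706 EC-like cells for WT and 2455 for EC-iCD45KO. Klf2 was detected in 60.8% and 55.5% of them, Klf4 in 32.9% and 32.4%, Piezo1 in 10.5% and 12.4%, Thbd in 7.91% and 9.94% and Nos3 in 5.32% and 6.88%. Without thinning the shares were 67.2% and 59.7% for Klf2, 41.7% and 42.7% for Klf4, 18.5% and 22.5% for Piezo1, 13.1% and 17.5% for Thbd and 9.96% and 13.0% for Nos3. In B-like cells, a type that should lack Nos3 and Thbd, the thinned shares were 0.223% and 0.322% for Nos3 and 0.186% and 0.965% for Thbd. Median depth before thinning was 1312 and 1340.5 UMIs in EC-like cells and 2007 and 2550 UMIs in B-like cells. The endothelial shares of both genes were above this background in each library.

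The endothelium was then divided by markers of vessel type that include none of the 5 genes. Venous EC-like cells (Ackr1 and Selp among their leading genes) numbered 692 in WT and 850 in EC-iCD45KO. Capillary EC-like cells (Gpihbp1 and Car4 among their leading genes) numbered 461 and 605, luminal aortic EC-like cells (led by Sfrp1) 514 and 334, while lymphatic EC-like cells, a class of their own outside the EC-like cells, numbered 238 and 216. A further artery cluster, led by Nebl, Igf2, Klk10, Pcsk5 and Sema3g, scored close to both the luminal aortic and the arterial lists and was left without a type name. It held 523 and 402 cells. The largest cluster, with 1789 and 1484 cells, was led by Ighg2b, Jchain, Cd79a and Mzb1, which are genes of B and plasma cells, and by none of the endothelial subtype markers. Its median depth was low, at 952 and 872 UMIs. It is therefore given by its leading genes, and the ratios of the 5 genes between the libraries are repeated without it. The levels, shares, co-detection and list counts of EC-like cells include it. The 3 smallest clusters, which held 45, 7 and 24 cells in WT and 40, 59 and 0 in EC-iCD45KO, are not compared.

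Klf2 and Klf4 were high in the Nebl-led artery cluster. Klf2 stood there at 1733 CPM (1665 to 1803) for WT against 1766 CPM (1702 to 1832) for EC-iCD45KO. Capillary EC-like cells matched this level in WT, at 1727 CPM (1650 to 1807), but not in EC-iCD45KO, at 1510 CPM (1454 to 1568). Venous EC-like cells had 1251 and 851 CPM and luminal aortic EC-like cells 1025 and 1293 CPM. The Ighg2b-led cluster had 822 and 588 CPM. The Nebl-led cluster was thus the highest and the Ighg2b-led cluster the lowest of the 6 by value in both libraries, the latter overlapping lymphatic EC-like cells in both.

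Klf4 was highest in the same Nebl-led cluster, at 769 CPM in WT and 682 CPM in EC-iCD45KO. Its lowest level in WT was in luminal aortic EC-like cells, at 288 CPM (260 to 319). In EC-iCD45KO that cluster had 389 CPM (350 to 431), and the lowest level was in the Ighg2b-led cluster, at 310 CPM. Capillary EC-like cells had 490 and 509 CPM and venous EC-like cells 440 and 346 CPM. Lymphatic EC-like cells had 537 and 645 CPM, the latter with an interval (578 to 716) that overlapped that of the Nebl-led cluster.

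Of the target genes, Nos3 was highest in the artery clusters, with 91.0 and 124 CPM in the Nebl-led cluster and 86.3 and 113 CPM in luminal aortic EC-like cells, and these overlapped in both libraries. Venous EC-like cells had 71.5 and 69.2 CPM, which overlapped the artery clusters in WT but not in EC-iCD45KO, and capillary EC-like cells 54.2 and 63.9 CPM. Thbd had another order. Capillary EC-like cells led with 157 and 166 CPM, venous EC-like cells had 132 and 137 CPM, and luminal aortic EC-like cells had 41.3 and 47.4 CPM, with intervals that overlapped those of the Ighg2b-led cluster. Piezo1 ranged from 98.3 CPM in lymphatic EC-like cells to 141 CPM in capillary EC-like cells in WT. In EC-iCD45KO the lowest was the Ighg2b-led cluster, at 107 CPM, and the highest the Nebl-led cluster, at 184 CPM, with lymphatic EC-like cells at 148 CPM.

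**Figure D2:**
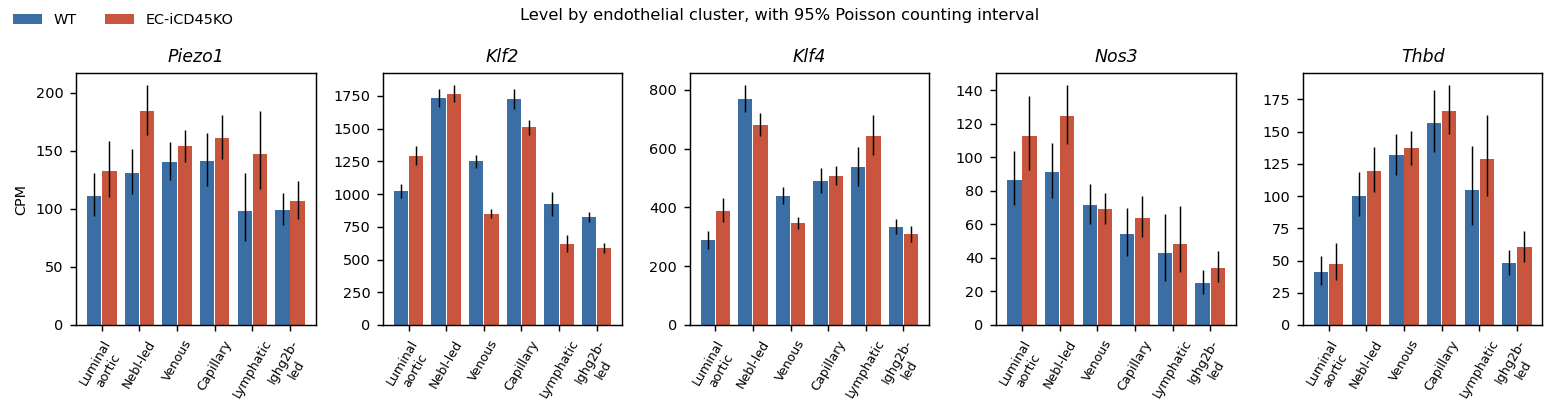
Level of each gene in CPM (linear axis from 0) in 5 endothelial clusters and in the Ighg2b-led cluster of EC-like cells, WT in blue and EC-iCD45KO in red, with 95% Poisson counting intervals as lines. Klf2 and Klf4 peak in the Nebl-led artery cluster, Nos3 in the 2 artery clusters, and Thbd in capillary and venous EC-like cells.

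Between the libraries, no gene of the 5 differed by 1.5-fold in EC-like cells. Thbd was higher in EC-iCD45KO by a log2 ratio of 0.34 (0.21 to 0.48), Piezo1 by 0.26 (0.14 to 0.37) and Nos3 by 0.25 (0.08 to 0.41). Klf2 was lower, at -0.12 (-0.16 to -0.08), and the interval of Klf4 held 0, at -0.04 (-0.10 to 0.03). Of 10976 genes whose mean in EC-like cells reached 5 CPM, 5.15% were at least 1.5-fold higher in EC-iCD45KO and 7.63% at least 1.5-fold lower, around a median log2 ratio of 0.00051. Without the Ighg2b-led cluster and the smallest clusters, Klf2 stood at -0.16 (-0.20 to -0.11), Klf4 at -0.10, Nos3 at 0.16 with an interval that held 0, Thbd at 0.25 and Piezo1 at 0.28. That alternative was chosen after the data were seen.

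The shares of EC-like cells with a UMI after thinning moved in the same directions. The share with Klf2 was lower in EC-iCD45KO by 5.27 percentage points (interval of the difference -7.96 to -2.58). The shares were higher by 1.56 points (0.26 to 2.89) for Nos3, 2.03 points (0.48 to 3.60) for Thbd and 1.92 points (0.19 to 3.67) for Piezo1. For Klf4 the difference was -0.47 points (-3.03 to 2.09). A few cells carried many Klf2 molecules: the highest count in an EC-like cell was 55 UMIs in WT and 228 UMIs in EC-iCD45KO, and the top 1% of cells held 11.9% and 15.5% of the Klf2 UMIs.

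The ratios of Klf2 and Klf4 were unlike from cluster to cluster. In the Ighg2b-led cluster, the largest of the EC-like class, Klf2 was lower in EC-iCD45KO, at -0.48 (-0.60 to -0.37), and the interval of Klf4 held 0, at -0.11 (-0.28 to 0.06). Klf2 was also lower in venous EC-like cells, at -0.56 (-0.64 to -0.48), in capillary EC-like cells, at -0.19 (-0.28 to -0.11), and in the separate class of lymphatic EC-like cells, at -0.57 (-0.78 to -0.36). It was higher in luminal aortic EC-like cells, at 0.34 (0.22 to 0.45), and its interval held 0 in the Nebl-led cluster, at 0.03 (-0.05 to 0.11). Klf4 was also higher in luminal aortic EC-like cells, at 0.43 (0.22 to 0.64), and lower in venous EC-like cells, at -0.35 (-0.48 to -0.22), and in the Nebl-led cluster, at -0.17 (-0.30 to -0.05). In lymphatic EC-like cells it was higher, at 0.26 (0.03 to 0.51), while Klf2 was lower there. None of these ratios reached 1.5-fold. The share of all genes at least 1.5-fold higher and lower was 9.08% and 12.6% in venous, 19.7% and 22.0% in lymphatic, 8.72% and 11.2% in capillary and 11.5% and 15.1% in luminal aortic EC-like cells, and 9.74% and 14.2% in the Nebl-led cluster. No difference between clusters was tested.

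Other markers moved with these clusters, and their part in the ratios was not tested. In venous EC-like cells the 7 lymphatic markers summed to 1324 CPM in WT and 58.0 CPM in EC-iCD45KO. With a stricter cell filter (500 genes or more, mitochondrial share up to 5%), the venous cluster was drawn differently and its Klf2 ratio was 0.0042, while 4 other alternatives gave -0.54 to -0.65. In luminal aortic EC-like cells macrophage markers summed to 1932 CPM in WT and 3693 CPM in EC-iCD45KO, SMC markers to 865 and 1386 CPM, and B cell markers to 695 and 49.5 CPM. The luminal aortic ratios of Klf2 and Klf4 stayed above 0 under 5 alternatives, at 0.18 to 0.39 and 0.18 to 0.44. Early response genes of tissue dissociation, a set of 17 that includes Fos and Jun, summed to 5763 and 6258 CPM in these cells.

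Piezo1, Nos3 and Thbd had ratios above 0 in most endothelial clusters, many with intervals that held 0. Piezo1 was higher in EC-iCD45KO in the Nebl-led cluster, at 0.49 (0.22 to 0.77), and in lymphatic EC-like cells, at 0.59 (0.04 to 1.14). The intervals held 0 in luminal aortic, venous, capillary and Ighg2b-led cells, with ratios of 0.26, 0.13, 0.19 and 0.11. Nos3 was higher in the Nebl-led cluster, at 0.45 (0.12 to 0.78), and its interval reached just below 0 in luminal aortic EC-like cells, at 0.39 (-0.01 to 0.78). In venous EC-like cells it stood at -0.05 (-0.36 to 0.27). Thbd gave intervals that held 0 in each of the 6 clusters, with ratios from 0.06 to 0.33, although its class ratio was the largest of the 5. Under 5 alternatives the Thbd ratio was 0.46 to 0.54 in luminal aortic EC-like cells, against 0.20 here, and -0.24 to 0.07 in venous EC-like cells, where that of Piezo1 was -0.07 to 0.15.

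**Figure D3:**
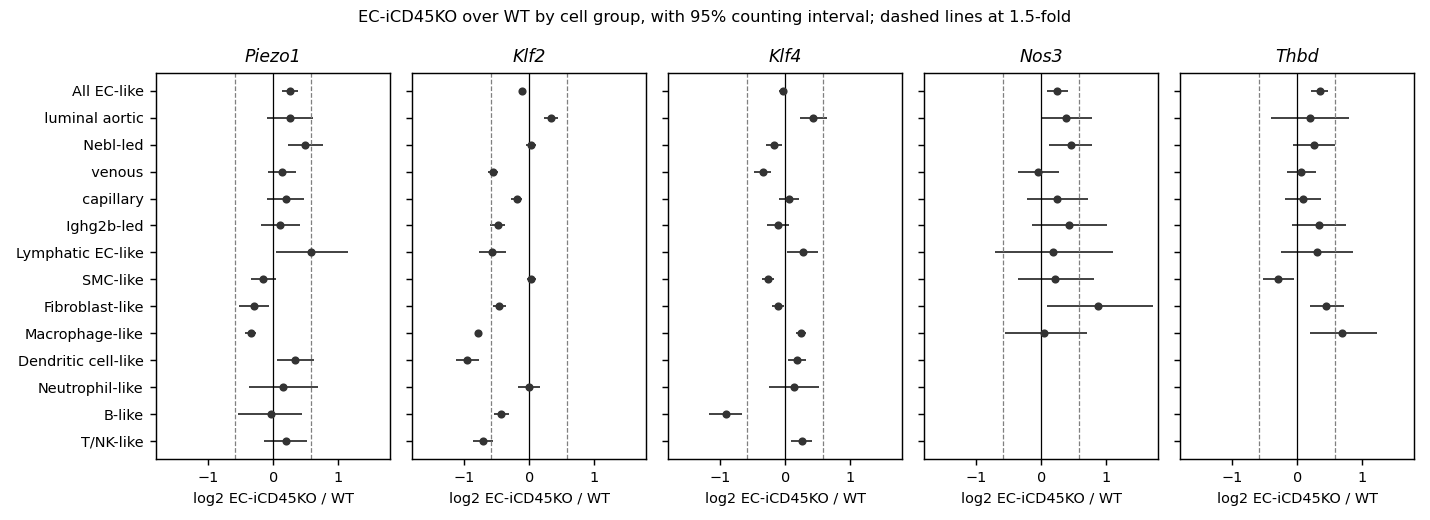
Log2 ratio of EC-iCD45KO over WT for each gene by cell group, with 95% counting intervals and dashed lines at 1.5-fold. Groups in which a library had under 10 UMIs of the gene are not drawn for Nos3 and Thbd. Klf2 lies below 0 in most groups and above 0 in luminal aortic EC-like cells, and Thbd and Piezo1 lie above 0 in the endothelial clusters drawn, as does Nos3 except in venous EC-like cells.

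Outside EC-like cells, Klf2 was lower in the EC-iCD45KO library in nearly every type. Its interval lay below 0 in 10 of 12 types and held 0 in SMC-like cells, at 0.03 (-0.04 to 0.10), and in neutrophil-like cells, at -0.01 (-0.17 to 0.16). Macrophage-like cells stood at 372 and 216 CPM, at -0.78 (-0.84 to -0.73), where 3.5% of 9556 genes were at least 1.5-fold lower. Dendritic cell-like cells stood at 287 and 148 CPM, at -0.95 (-1.13 to -0.77), where 11.7% of genes were at least 1.5-fold lower. T/NK-like cells had 463 and 282 CPM, at -0.72 (-0.87 to -0.57), where 6.14% of genes were. Within them naive T-like cells, only 62 in EC-iCD45KO, had 513 and 529 CPM, and effector T/NK-like cells had 517 and 288 CPM, at -0.84 (-1.17 to -0.53). Over all cells kept, Klf2 stood at 575 and 361 CPM, and B-like cells made up 16.3% of the WT cells and 1.29% of those of EC-iCD45KO.

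The other genes had no such shared direction outside EC-like cells. Klf4 lay above 0 in 4 types, below 0 in 4 and held 0 in 4. It was lower in B-like cells, at 294 and 156 CPM, a ratio of -0.92 (-1.17 to -0.67), and higher in macrophage-like cells, at 185 and 219 CPM, a ratio of 0.24 (0.17 to 0.32). In T/NK-like cells as a class Klf4 was higher, at 0.25 (0.09 to 0.41). Within that class it was lower in effector T/NK-like cells, at -0.92 (-1.47 to -0.42), and its interval held 0 in naive T-like cells, at 0.22. Piezo1 was lower in macrophage-like cells, at -0.34 (-0.43 to -0.26), and in fibroblast-like cells, at -0.30 (-0.53 to -0.06). It was higher in dendritic cell-like cells, at 0.34 (0.05 to 0.63). Thbd was higher in fibroblast-like cells, at 0.45 (0.19 to 0.71), and lower in SMC-like cells, at -0.29 (-0.52 to -0.06). Nos3 held 0 in 11 of 12 types. The shares of all genes at least 1.5-fold higher and lower in EC-iCD45KO were 3.26% and 3.5% in macrophage-like, 7.9% and 11.7% in dendritic cell-like, 14.2% and 6.14% in T/NK-like, 10.5% and 6.39% in B-like, 14.0% and 20.9% in neutrophil-like, 6.44% and 11.6% in fibroblast-like and 5.77% and 7.25% in SMC-like cells.

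Klf2 and Klf4 were found together in single EC-like cells: Klf4 was seen more often in cells with a Klf2 UMI than in cells without. After thinning to 1000 UMIs, a Klf4 UMI was present in 37.2% (34.9 to 39.6) of the WT cells with a Klf2 UMI and in 26.1% (23.5 to 28.9) of those without. In EC-iCD45KO the shares were 38.7% (36.1 to 41.4) and 24.5% (21.9 to 27.1). Nos3 was present in 5.90% of WT cells with Klf2 and 4.43% of those without, with overlapping intervals, and in 8.88% (7.42 to 10.5) and 4.40% (3.26 to 5.79) of those of EC-iCD45KO. Thbd was present in 8.51% of WT cells with Klf2 and 6.97% of those without, with overlapping intervals. In EC-iCD45KO the shares were 11.6% (9.94 to 13.4) and 7.88% (6.35 to 9.63). By Klf4, Thbd was present in 10.7% (8.73 to 12.9) and 6.55% (5.46 to 7.79) in WT, and in 10.1% and 9.88% in EC-iCD45KO, with overlapping intervals. Thbd and Nos3 were not found together more often: in WT 5.61% of cells with Thbd and 5.30% of those without had Nos3, and in EC-iCD45KO 6.15% and 6.97%. The pairing of Klf4 with Klf2 was also seen in macrophage-like cells, where Klf4 was present in 23.3% (20.1 to 26.8) against 14.9% (13.2 to 16.6) in WT and 24.5% against 17.8% in EC-iCD45KO. In naive T-like cells the order was the other way, with overlapping intervals: 6.19% against 8.60% in WT and, over 52 cells, 4.76% against 19.4% in EC-iCD45KO. No UMI of any of the 5 genes was seen in 645 WT cells and 644 EC-iCD45KO cells, and 1 cell of each library held all 5. These shares run across vessel types that differ in both genes, as given above, and are descriptions of 1 library each.

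Across 18 types and subtypes, the genes whose log2(CPM + 1) profile was most like each member were chosen by the lower of the 2 libraries' Pearson r among 10049 genes. For Nos3 they were Sox18, an endothelial transcription factor, at 0.95, Scarf1 at 0.92 and Adcy4 at 0.92. For Thbd they were Adamts9 at 0.94, Gng11 at 0.94 and Dock6 at 0.94. For Klf2 they were Cr1l at 0.88, Tmod3 at 0.85 and Icam2, an adhesion molecule of endothelium and lymphocytes, at 0.83. For Klf4 they were Mtch1 at 0.81, Ppfibp1 at 0.79 and Cntln at 0.79, and for Piezo1 Sptlc2 at 0.86, Sh3tc1 at 0.83 and Gnai2 at 0.83. Among the 5 genes themselves, the likest pair was Nos3 and Thbd at 0.79 and the least alike Klf2 and Klf4 at 0.39. The points share their library, and the subtypes share cells with their class, so these values are descriptions.

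The rest of the pathway was read in EC-like cells from lists without the 5 genes. Of the 9 other mechanosensors and sensor signalling genes, 8 reached 5 CPM. Plxnd1, which encodes a flow-sensing plexin, was at least 1.5-fold higher in EC-iCD45KO, at 75.3 and 116 CPM, a log2 ratio of 0.63 (0.49 to 0.77), and none was lower, beside 5.15% and 7.63% of all genes, with a list median of 0.14. No gene of the list was past 1.5-fold without doublet removal, with libraries centred before clustering or by the mean of single-cell CPM. The G protein subunits that relay force, Gna11 and Gnaq, stood at 0.33 and 0.08. Of the 13 genes of the ERK5-MEF2 arm, all of which reached 5 CPM, 1 was at least 1.5-fold lower and none higher, a share near the 7.63% of all genes that were lower, and the median was -0.06. The lower one was Ccm2, a scaffold of the cerebral cavernous malformation complex that restrains MEKK3, at 75.1 and 44.1 CPM (-0.77). Mef2c, at 330 and 241 CPM (-0.45), and Mef2a, at 247 and 327 CPM (0.40), differed in opposite directions within 1.5-fold.

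Of 20 genes known to answer to laminar flow or to KLF2 and KLF4, 19 reached 5 CPM, and 2 were at least 1.5-fold higher and 2 lower, beside 5.15% and 7.63% of all genes. Ratios over all EC-like cells lay above 0 for 15 and below 0 for 4, with a median of 0.23. Within venous EC-like cells 10 lay above 0 and 8 below, with a median of 0.06. The counts were 10 and 8 in luminal aortic (median 0.12), 10 and 6 in capillary (0.04) and 11 and 7 in lymphatic EC-like cells (0.14). In the Nebl-led cluster they were 15 and 3 (0.31). The medians over all genes in these clusters lay between -0.03 and -0.01. The list's median was also above that of all genes in fibroblast-like cells, at 0.35, dendritic cell-like cells, at 0.67, neutrophil-like cells, at 0.32, and macrophage-like cells, at 0.18. It was about that of all genes in B-like cells, at 0.05 against 0.03, and below it in T/NK-like cells, at -0.05 against 0.08. Past 1.5-fold were Hmox1, haem oxygenase 1, at 31.2 and 62.2 CPM (0.996), and Tfpi2, at 3.59 and 9.20 CPM (1.36), as higher. Cyp1b1, at 19.6 and 7.23 CPM (-1.44), and Nqo1, at 13.6 and 8.99 CPM (-0.60), were lower. Gja4, connexin 37, stood at 94.1 and 128 CPM (0.45) and Slc9a3r2 at 309 and 412 CPM (0.41). Hmox1 was also a macrophage gene here, at 116 and 145 CPM in macrophage-like cells.

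Genes known to be raised by disturbed flow had calls in both directions in EC-like cells. Of 15 listed, 13 reached 5 CPM, 5 were at least 1.5-fold higher and 3 lower, beside 5.15% and 7.63% of all genes, with a median of 0.15. The higher ones included Ccl2, the monocyte chemokine, at 52.4 and 121 CPM (1.21), E-selectin Sele, at 26.7 and 60.6 CPM (1.18), the neutrophil chemokine Cxcl1, at 61.2 and 131 CPM (1.10), and Angpt2, at 20.4 and 40.0 CPM (0.97). The lower ones were Vcam1, at 209 and 130 CPM (-0.69), Bmp4, at 85.7 and 45.0 CPM (-0.93), and Ankrd1, at 10.8 and 2.58 CPM (-2.06). Ccl2 stood at 278 and 460 CPM in macrophage-like cells, whose markers were present in EC-like droplets as given above. Within luminal aortic EC-like cells, against the 11.5% and 15.1% of all genes given above, 2 of the 12 that reached 5 CPM were higher and 2 lower. Of these Ccl2 stood at 36.0 and 180 CPM, Bmp4 at 393 and 218 CPM and Vcam1 at 564 and 355 CPM. Within venous EC-like cells, against 9.08% and 12.6%, 5 of 13 were higher and 3 lower, with Sele at 72.0 and 160 CPM. In capillary EC-like cells 6 of 11 were higher and 0 lower, against 8.72% and 11.2%, with a median of 0.62. In the Nebl-led cluster 5 of 12 were higher and 0 lower, against 9.74% and 14.2%, with a median of 0.40. In lymphatic EC-like cells 3 of 14 were higher and 4 lower, against 19.7% and 22.0%, with a median of -0.15. Outside endothelium, 4 of 7 were higher and 0 lower in macrophage-like cells, against 3.26% and 3.5%, and 5 of 8 and 0 in T/NK-like cells, against 14.2% and 6.14%. In neutrophil-like cells 3 of 12 were higher and 4 lower, against 14.0% and 20.9%.

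Around Nos3, 17 of 18 genes of nitric oxide synthesis and breakdown reached 5 CPM, 4 were at least 1.5-fold higher and 1 lower, beside 5.15% and 7.63% of all genes, with a median of 0.17. The inducible synthase Nos2 was among the higher, at 6.22 and 10.2 CPM (0.72). Nostrin, which brings the enzyme in from the membrane, was lower, at 36.9 and 23.6 CPM (-0.65). Ddah2 stood at 67.3 and 99.7 CPM (0.57) and Ddah1, in the other direction, at 79.4 and 62.6 CPM (-0.34). Of the receptor side, 5 of 8 genes reached 5 CPM and 1 was lower, beside the 7.63% of all genes: Gucy1a1, a subunit of soluble guanylate cyclase, at 11.2 and 7.03 CPM (-0.68), with a list median of -0.15.

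Around Thbd, 5 of 10 genes of the protein C pathway reached 5 CPM, and their median was 0.25. The counts below stand beside 5.15% of all genes higher and 7.63% lower. Procr, the endothelial protein C receptor that works beside thrombomodulin, was the 1 gene at least 1.5-fold lower, at 128 and 63.2 CPM, a ratio of -1.02 (-1.16 to -0.87). Pros1, protein S, stood at 65.9 and 80.2 CPM (0.28). Of the 15 other KLF family members, 10 reached 5 CPM and Klf12 was lower, at 57.9 and 36.3 CPM (-0.67), with a median of 0.13. The other 9 lay within 1.5-fold, among them Klf10 at 0.39, Klf7 at 0.27, Klf3 at 0.24 and Klf6 at 0.11. Early response genes of tissue dissociation, had 2 of 17 higher, Hsph1 (0.92) and Hspa1b (0.61), none lower and a median of 0.04. Their summed level was 6206 CPM in WT and 6041 CPM in EC-iCD45KO.

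Genes that Klf2 is known to raise in lymphocytes were low in the EC-like droplets of EC-iCD45KO. Of 4 listed, 3 were at least 1.5-fold lower, beside 7.63% of all genes, among them the integrin subunit Itgb7 at 31.6 and 12.2 CPM (-1.37) and S1pr4 at 15.2 and 8.27 CPM (-0.88). S1pr1, which endothelium also makes, stood at 321 and 347 CPM (0.11). Itgb7 had 204 and 262 CPM in naive T-like cells and 80.5 and 79.5 CPM in B-like cells. The same list had 2 of 3 genes lower in fibroblast-like, SMC-like and neutrophil-like cells, with medians of -1.29, -0.93 and -0.67, beside 11.6%, 7.25% and 20.9% of all genes. In T/NK-like and dendritic cell-like cells 2 of 4 were lower, beside 6.14% and 11.7%. The list went the other way in macrophage-like cells, with 1 of 2 higher and 0 lower (median 0.25), beside 3.26% higher. In B-like cells 1 of 4 was higher and 0 lower (median 0.30), beside 10.5% higher. B cell, T/NK and plasma cell markers were lower in the EC-like droplets of EC-iCD45KO together with these genes, and the part of lymphocyte RNA in them was not tested.

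**Figure D4:**
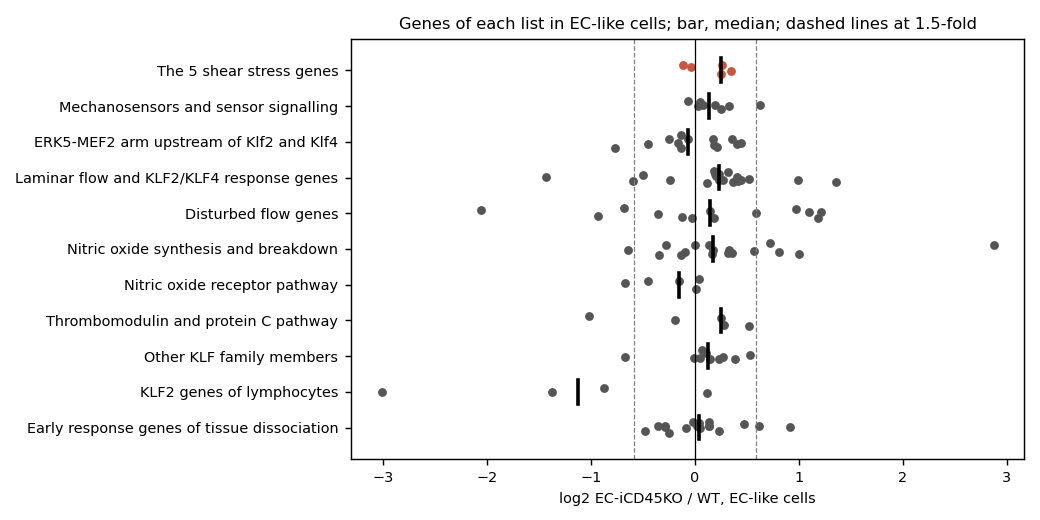
Log2 ratio of EC-iCD45KO over WT in EC-like cells for every gene that reached a mean of 5 CPM, by list. Each point is a gene, bars are list medians, dashed lines mark 1.5-fold, and the 5 shear stress genes are in red. The 5 genes lie between -0.12 and 0.34, inside the 1.5-fold lines.

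Klf4, Thbd and Klf2 also separated the 2 artery clusters, in both libraries. In the Nebl-led cluster Klf4 was higher than in luminal aortic EC-like cells by a log2 ratio of 1.42 (1.25 to 1.59) for WT and 0.81 (0.64 to 0.98) for EC-iCD45KO. Thbd was higher by 1.28 (0.82 to 1.76) and 1.33 (0.86 to 1.84), and Klf2 by 0.76 (0.66 to 0.85) and 0.45 (0.35 to 0.55). Nos3 did not separate them, at 0.08 (-0.30 to 0.45) and 0.14 (-0.20 to 0.49), and Piezo1 stood at 0.24 (-0.08 to 0.56) and 0.47 (0.17 to 0.78). Klf4 and Thbd were past 1.5-fold in both libraries, as were 8.19% of 10256 genes in that direction and 6.26% in the other. For early response genes of dissociation the list medians were 0.25 and 0.31, against 0.05 and 0.03 over all genes. Of these 17 genes 1, Btg2, was past 1.5-fold higher in both libraries and 0 were lower, beside the same shares of all genes. The early response sums were 7100 and 7318 CPM in the Nebl-led cluster against 5763 and 6258 CPM in luminal aortic EC-like cells. The part of these genes in the ratios was not tested. The choice of this pair came after seeing the data, and both clusters were drawn from these same cells.

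Most disturbed flow genes ran the other way across these clusters. Of 12 that reached 5 CPM in both libraries, 7 were at least 1.5-fold lower in the Nebl-led cluster in both and 1, Angpt2, was higher, with medians of -1.29 in WT and -0.79 in EC-iCD45KO. The medians over all genes were 0.05 and 0.03, and the counts here stand beside the 8.19% of all genes higher and 6.26% lower in both libraries. Sele stood at -4.10 and -3.54, Bmp4 at -3.003 and -2.01, Edn1, endothelin 1, at -1.49 and -0.82, Vcam1 at -1.11 and -0.79 and Icam1 at -1.03 and -0.78. The laminar flow list was divided: of 18 genes, Slc9a3r2, Timp3, Plpp3 and S1pr1 were higher in the Nebl-led cluster in both libraries and Cyp1b1, Aqp1, Gja4, Ptgis and Bmp6 were lower, with medians of -0.49 and 0.00. Procr, the partner of thrombomodulin, was lower where Thbd was higher. Of 10 other KLF genes, Klf6, Klf9, Klf12 and Klf16 were higher and none was lower.

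**Figure D5:**
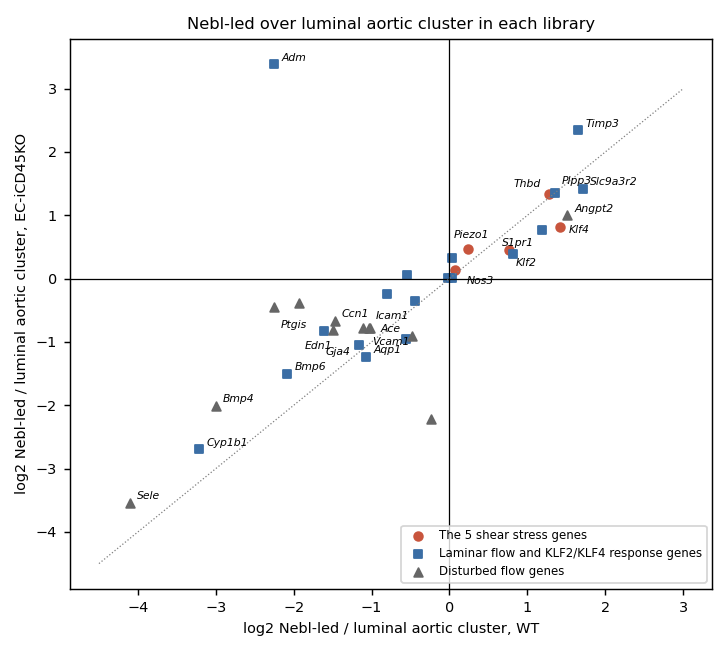
Log2 ratio of the Nebl-led over the luminal aortic cluster in WT (x axis) and EC-iCD45KO (y axis). Points are the 5 shear stress genes (red circles), laminar flow genes (blue squares) and disturbed flow genes (grey triangles) whose mean over the 2 clusters reached 5 CPM in both libraries, and the dotted line marks equal ratios. Klf4, Thbd and Klf2 lie at the upper right and most disturbed flow genes at the lower left, whereas Adm lies on opposite sides in the 2 libraries, with 18 and 4 UMIs in WT and 3 and 53 UMIs in EC-iCD45KO.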

How the data were processed

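Aortic cells of 1 WT and 1 EC-iCD45KO library were read from the deposited matrices of UMI counts, made with Cell Ranger 7.1.0 per the file headers, with the genome build mm10 per the submitters' processing notes. The authors' deposited counts are whole numbers with no normalization, and every barcode in them holds at least 500 UMIs. Intron counting is not given in the sources used here.

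Cells were kept where they showed 300 genes or more and a mitochondrial share of up to 10%. Scrublet's own threshold marked 8 of 39716 WT cells and 0 of 29991 EC-iCD45KO cells and had not worked, so the top 10% of scores in each library were removed. Cells were normalized, reduced to 30 principal components over 2000 variable genes, without the 5 genes and the gene lists, and clustered with Leiden at resolution 1 (scanpy 1.11.5). Clusters were named X-like from marker lists. EC-like and T/NK-like cells were clustered again at resolution 0.4 on library-centred genes that reach at least 0.25 of their top level in a named class. The doublet rule, the naming thresholds, the sub-clustering rule and the pair of artery clusters were chosen after the data were seen. The 5 genes and the gene lists were chosen with earlier results of these data known.

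UMIs were summed per type and library. CPM intervals are exact Poisson, shares exact binomial (Clopper-Pearson), ratios conditional binomial and share differences Newcombe, all 95%. List genes were counted at 1.5-fold where their mean reached 5 CPM. From each list the text names genes past 1.5-fold or with a mean of 50 CPM or more, at most 6, the largest ratios first, and others only to complete a short count. For each of the 5 genes the 3 most alike are named. A few genes that these rules would name are counted but not reported here. The ratio code was tested on simulated data. Alternatives changed the cell filter, doublet removal, clustering, scaling, weights, minimum level and thinning. TMM used edgeR 4.0.16. Promoters come from RefSeq and gene positions from GRCm38.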

Additional observations from a re-analysis of the deposited data

Results flagged for a closer look

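Klf2 and Klf4 had intervals on opposite sides of 0 in different endothelial groups under the same contrast of EC-iCD45KO over WT. The log2 ratio of Klf2 was 0.34 in luminal aortic EC-like cells, against -0.56 in venous, -0.57 in lymphatic and -0.19 in capillary EC-like cells. The ratio of Klf4 was 0.43 in luminal aortic and 0.26 in lymphatic EC-like cells, against -0.35 in venous EC-like cells and -0.17 in the Nebl-led artery cluster.

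Thbd was lower in SMC-like cells, at -0.29, while it was higher in EC-like and fibroblast-like cells. Piezo1 was lower in macrophage-like cells, at -0.34, and in fibroblast-like cells, at -0.30, while it was higher in EC-like cells. With 1 library per group, none of these differences between groups was tested.

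Cells that fell in no named type, 10680 in WT and 3648 in EC-iCD45KO, held 3 of the genes at a higher level in EC-iCD45KO. Klf4 stood at 250 CPM in WT and 335 CPM in EC-iCD45KO, Thbd at 17.6 and 23.2 CPM and Piezo1 at 106 and 131 CPM. Klf2 was lower there, at 461 and 236 CPM, a ratio of -0.96 (-1.02 to -0.91), and Nos3 stood at 7.52 and 6.35 CPM, with an interval that held 0.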

How the results depend on the processing

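No paired analysis was possible because there was a single library in each group, so none could be left out either. In EC-like cells the ratios of all 5 genes kept their direction under every alternative run. For Klf2 the ratio moved to -0.17 with a looser cell filter, -0.26 without doublet removal, -0.17 with libraries centred before clustering, -0.042 with equal weights for the clusters and -0.24 as the mean of single-cell CPM. For Thbd it moved to 0.21 without doublet removal, 0.19 with equal weights and 0.13 with equal weights for the named and artery clusters, an alternative chosen after seeing the data. The log2 level over other cells moved to 1.35 for Klf2 and 0.91 for Klf4 in WT with a stricter cell filter. In EC-iCD45KO it moved to 2.20 for Klf2 with that filter, and without doublet removal to 2.00 for Klf2, 0.71 for Klf4 and 2.53 for Thbd. The share difference for Klf2, -5.27 points here, was larger in size under all 7 alternatives, from -6.15 to -9.66 points, the latter without doublet removal. For Klf4 it ran from -1.14 to 1.04 points, on both sides of 0. The share difference moved to 4.60 for Nos3 and 4.52 for Piezo1 with thinning to 2000 UMIs, and without thinning to 3.07 for Nos3, 4.37 for Thbd and 4.03 for Piezo1. The Klf2 ratio in venous EC-like cells turned from -0.56 to 0.0042 with the stricter filter; the cause was not tested.

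Counts of list genes past 1.5-fold moved as follows. With a minimum of 20 CPM, which tests fewer genes, laminar flow genes had 1 higher and 0 lower, nitric oxide synthesis 0 higher, the nitric oxide receptor pathway 0 lower and lymphocyte genes 1 lower. By the mean of single-cell CPM, mechanosensors had 0 higher, laminar flow genes 1, the receptor pathway 1 and other KLF genes 1. There the ERK5-MEF2 arm had 2 lower, the protein C pathway 2, disturbed flow genes 1, nitric oxide synthesis 0 and the receptor pathway 0. With no minimum and 0.5 CPM added, mechanosensors had 2 higher, and the protein C pathway 1 higher and 2 lower. Mechanosensors had 0 higher without doublet removal and with centred libraries, and 2 in CPM without mitochondrial, ribosomal, haemoglobin and immunoglobulin genes, where early response genes had 1 higher. With equal weights, early response genes had 1 higher, disturbed flow genes 1 lower and the receptor pathway 0 lower, as it had with centred libraries. Laminar flow genes had 1 lower at Leiden resolution 2 and 1 among EC-like cells of at least 1000 UMIs. The cause of these moves was otherwise not tested.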
